A study of Mus musculus with 2 samples.

Results

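The miR-26 family of the mouse consists of 3 microRNA genes, Mir26b, Mir26a-2 and Mir26a-1, which were identified by their GENCODE M21 symbols among the 2202 microRNA genes counted in heart tissue. The tissue came from female B6CASTF1/J mice aged 2 months, the hybrid offspring of the inbred strains C57BL/6J and CAST/EiJ. The study has 1 group of 2 biological replicates, with no treatment, mutation or other contrast. The labels number the samples as different females but give them the same donor, so the spread between them may be technical. The data thus give the reads counted at each miR-26 gene in the heart and how far those counts held between 2 libraries.

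MicroRNAs are cut from hairpin transcripts into short strands, named 5p and 3p after the hairpin arm they come from. A strand guides the silencing complex to messenger RNAs that pair with its seed, the bases near its 5′ end, and genes whose products share a seed form a family. The miR-26 hairpins lie inside genes for small phosphatases that act on the C-terminal domain of RNA polymerase II (Ctdsp1, Ctdsp2 and Ctdspl), and are made from the introns of those genes. The family is known for repression of Ezh2, a histone methyltransferase, and in the heart for repression of Kcnj2, which encodes the inward rectifier potassium channel.

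The mature strands are shown first because the counts turn on which of them are shared between genes. All 3 genes matched a RefSeq entry (GRCm38.p6), which lists 5 mature names for them. Seeds (bases 2 to 8) are in capitals.
miR-26b-5p (Mir26b): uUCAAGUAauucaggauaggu
miR-26a-5p (Mir26a-2 and Mir26a-1): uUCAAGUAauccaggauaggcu
miR-26b-3p (Mir26b): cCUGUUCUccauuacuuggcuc
miR-26a-2-3p (Mir26a-2): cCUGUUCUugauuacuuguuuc
miR-26a-1-3p (Mir26a-1): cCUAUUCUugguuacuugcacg

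The 5p strands of all 3 genes carry the same seed, and among the 1679 mature names in the RefSeq table only miR-26a-5p and miR-26b-5p hold it. Counted from 1 at the 5′ end, miR-26b-5p differed from miR-26a-5p by C11U and C21U, both outside the seed, over the 21 bases compared. The 5p strand of Mir26a-2 and that of Mir26a-1 were identical over 22 bases. Their 3p strands differed by 6 substitutions, A4G in the seed and G11A, C19U, A20U, C21U and G22C outside it. The 3p strands of Mir26a-2 and Mir26b shared a seed and differed at 4 other bases, and miR-6932-3p and miR-7039-3p hold that seed too. No other listed strand holds the 3p seed of Mir26a-1.

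The hairpins show how far this identity extends. In Mir26a-2 and Mir26a-1 the capitals mark the longest stretch common to both, and in Mir26b they mark its 5p strand.
Mir26b hairpin: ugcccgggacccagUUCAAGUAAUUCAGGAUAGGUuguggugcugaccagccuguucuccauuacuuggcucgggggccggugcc
Mir26a-2 hairpin: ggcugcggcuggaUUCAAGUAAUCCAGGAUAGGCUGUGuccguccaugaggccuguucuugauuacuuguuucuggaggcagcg
Mir26a-1 hairpin: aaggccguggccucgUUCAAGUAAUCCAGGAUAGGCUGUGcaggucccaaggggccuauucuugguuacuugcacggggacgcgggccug

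The stretch common to Mir26a-2 and Mir26a-1 is 25 bases long. It begins with the first base of miR-26a-5p and runs past its last base, so a read of miR-26a-5p has the same letters at both genes. The longest stretch that Mir26b shares with either gene is 11 bases, with Mir26a-1, and 10 bases with Mir26a-2. Over their whole length Mir26a-2 and Mir26a-1 were 72.5% identical in a global alignment, Mir26b and Mir26a-1 68.8%, and Mir26b and Mir26a-2 66.0%. In windows of 22 bases, 4 of 63 start positions of Mir26a-2 and 4 of 69 of Mir26a-1 had a copy in another of the 2202 annotated hairpins, in each case the other Mir26a gene. None of the 64 start positions of Mir26b had one. The 3p arms had no copy in another hairpin at this window length.

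**Figure D1:**
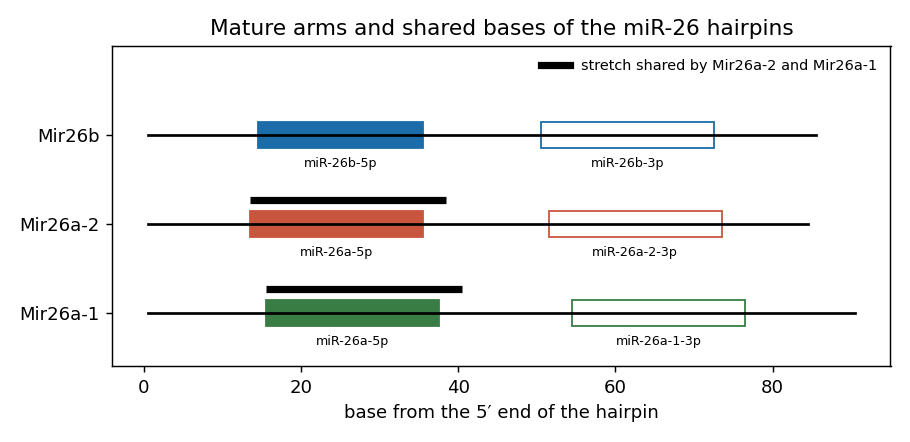
The hairpins of Mir26b, Mir26a-2 and Mir26a-1 drawn to scale, in bases from the 5′ end. Filled boxes are 5p strands, open boxes are 3p strands and the black bar is the 25-base stretch shared by Mir26a-2 and Mir26a-1, which covers the whole 5p strand and leaves the 3p strand clear.

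In mm10 the genes lie on 3 chromosomes, each on the plus strand in an intron of a phosphatase gene on the same strand. Mir26b (ENSMUSG00000065468.1) lies at chr1:74394310-74394394 in intron 4 of 6 of the transcript Ctdsp1-201. Mir26a-2 (ENSMUSG00000065430.1) lies at chr10:126995530-126995613 in intron 5 of 7 of Ctdsp2-202. Mir26a-1 (ENSMUSG00000065513.1) lies at chr9:119031796-119031885 in intron 5 of 7 of Ctdspl-201. The host introns are 564 bases long in Ctdsp1, 1946 in Ctdsp2 and 3283 in Ctdspl. Mir26b and Mir26a-2 end 245 and 241 bases before the next exon, and Mir26a-1 ends 1650 bases before it. Every host transcript that spans a hairpin, 2 of Ctdsp1, 1 of Ctdsp2 and 3 of Ctdspl, has it in an intron and none in an exon. No annotated gene overlaps any of the hairpins on the opposite strand. The predicted folds were alike, with 33, 32 and 34 base pairs in Mir26b, Mir26a-2 and Mir26a-1 and minimum free energies of -43.5, -44.5 and -49.4 kcal/mol. Per 100 bases these were lower than in 89.0%, 91.2% and 93.1% of the 2202 hairpins.

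Of 7995058 reads in replicate 2 and 8069273 in replicate 1, 2770301 and 2424441 were counted on the gene's own strand of a microRNA gene. Levels are given as CPM of these own-strand totals, and were not divided by length because the mature strands are all 21 or 22 bases long. The tables list reads with several mapping places on a line of their own, outside every gene. They numbered 3410568 in replicate 2 and 3992614 in replicate 1. The 3 microRNAs of myosin genes served as markers of cardiac muscle, and all were detected. Mir208a stood at 5865 CPM in replicate 2 and 1542 in replicate 1, Mir499 at 2641 and 4354 CPM, and Mir208b at 39.3 and 84.1 CPM. Mir208a was thus higher in replicate 2, and Mir499 and Mir208b were lower. Intervals below are 95% exact Clopper-Pearson intervals and, like all limits here, cover counting error only.

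Mir26b made up almost all of the family's counts. It had 38314 counts in replicate 2 and 64841 in replicate 1, or 13830 CPM (13693 to 13969) and 26745 CPM (26542 to 26949). Both libraries placed it among their most abundant genes, at rank 15 in replicate 2 and rank 12 in replicate 1 of 2202. Its mean was 20288 ± 9132 CPM (SD, n = 2). No read was counted on its opposite strand in either library.

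Mir26a-2 had far fewer counted reads and differed most between the libraries. It had 60 counts in replicate 2 and 817 in replicate 1, or 21.7 CPM (16.5 to 27.9) and 337 CPM (314 to 361). Its rank was 213 in replicate 2 and 97 in replicate 1. The mean of 179 CPM had an SD of 223 CPM (n = 2), larger than the mean itself, so the mean describes neither library. It too had no count on the opposite strand.

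Mir26a-1 was close to the limit of the counting. It had 6 counts in replicate 2 and 11 in replicate 1, or 2.17 CPM (0.795 to 4.71) and 4.54 CPM (2.26 to 8.12), intervals that overlap. Both values lie above the limit that a count of 0 allows at this depth. That limit is 1.08 CPM for replicate 2 and 1.24 CPM for replicate 1. The interval in replicate 2 begins at 0.795 CPM, below its limit. Mir26a-1 fell short of the 10 counts in both libraries that were asked of a detected gene. That rule was met by 306 of the 2202 genes, Mir26b and Mir26a-2 among them. A single read lay on the opposite strand of Mir26a-1, in replicate 2.

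**Figure D2:**
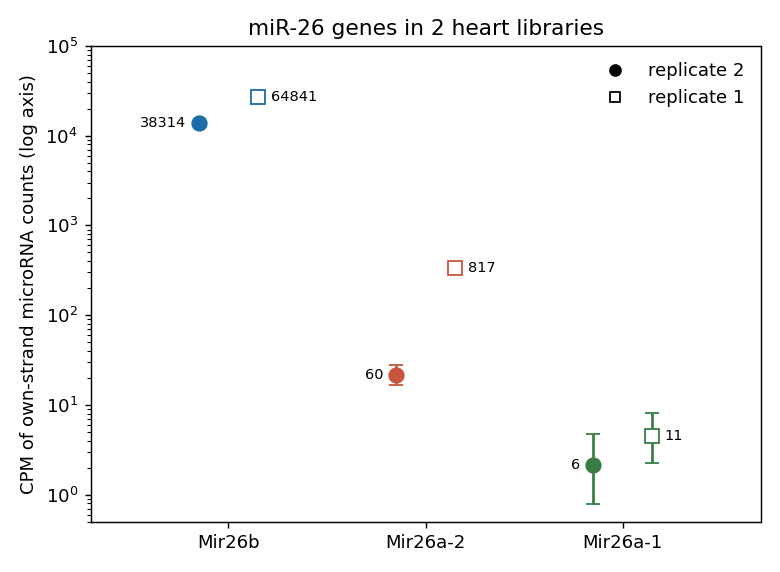
CPM (log axis) of each miR-26 gene in replicate 2 (filled circles) and replicate 1 (open squares), with 95% exact intervals and the count beside each point. The order Mir26b, Mir26a-2, Mir26a-1 holds in both libraries, and each gene is higher in replicate 1, with overlapping intervals for Mir26a-1.

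The order of the genes was thus the same in both libraries, with no overlap between the intervals of different genes within a library. Mir26b held 99.8% of the family's counts in replicate 2 (99.8 to 99.9) and 98.7% in replicate 1 (98.7 to 98.8). Mir26a-2 held 0.156% in replicate 2 and 1.24% in replicate 1, and Mir26a-1 held 0.0156% and 0.0168%. The ratio of Mir26b to Mir26a-2 counts, which needs no scaling between libraries, was 639 in replicate 2 (496 to 837) and 79.4 in replicate 1 (74.1 to 85.1). It therefore differed 8.05-fold between them. The ratio of Mir26b to Mir26a-1 was 6386 in replicate 2 (2934 to 17402) and 5895 in replicate 1 (3294 to 11809), and these ranges overlap.

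These ratios are ratios of counted reads, not of microRNA molecules. Both Mir26a genes share the whole of miR-26a-5p and Mir26b shares no window with another hairpin. The reads with several mapping places were 88.9 times the family's count in replicate 2 and 60.8 times in replicate 1, and the tables do not say how many of them are miR-26a-5p. The part of uncounted reads in the low counts of Mir26a-2 and Mir26a-1 was not tested. The tables also do not say which arm the counted reads came from. A read wholly within the 25 bases common to Mir26a-2 and Mir26a-1 matches both genes. Reads with several mapping places are outside every gene. Whether the counted reads of the Mir26a genes reach beyond that stretch or differ from it was not tested. Their counts should not be read as a measure of miR-26a-5p as a whole.

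Comparison of replicate 2 with replicate 1 asked how stable the levels were. Mir26b was 1.93-fold lower in replicate 2 (1.91 to 1.96), a log2 ratio of -0.95. Mir26a-2 was 15.6-fold lower (11.96 to 20.6), a log2 ratio of -3.96, the lowest of all 306 detected genes. Both differed beyond counting error (exact binomial test, two-sided, Benjamini-Hochberg adjustment across 306 genes), with an adjusted p of 1.1e-192 for Mir26a-2 and a smaller one for Mir26b. By that rule 61.1% of the 306 genes differed between the libraries, 41.5% lower and 19.6% higher in replicate 2, and 36.6% differed in either direction by at least 1.5-fold as well, as Mir26b and Mir26a-2 did. A call alone therefore says little about a gene. The test compares 2 libraries and no conditions, and includes counting error alone. Mir26a-1 had a log2 ratio of -1.07 and a ratio of replicate 2 over replicate 1 between 0.145 and 1.41, and was not tested for want of counts.

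Against the other genes the 2 detected members differed in rank. The median detected gene had a log2 ratio of -0.19, with an SD over genes of 0.83. Mir26b ranked 48 from the lowest of 306, and Mir26a-2 ranked 1. When the spread of all detected genes between the libraries was included, as edgeR's common dispersion (a biological coefficient of variation of 0.383), edgeR's exact test called 2 of 306 genes. That test sets 1 library against 1, and its dispersion comes from the same 2 libraries, so it ranks these genes by size against the other genes and says nothing of the spread between animals. The genes called were Mir26a-2, lower in replicate 2 (adjusted p = 0.00426), and Mir451a, an erythroid microRNA, higher in replicate 2 (adjusted p = 0.011). Mir26b did not pass it (adjusted p = 1). TMM and DESeq2 factors moved the median log2 ratio to 0.03 and 0, and Mir26b then stood at -0.73 and -0.76 and Mir26a-2 at -3.74 and -3.77. With TMM factors 97 genes were higher and 84 lower in replicate 2, against 60 and 127 with library totals, so the balance of directions over all genes rests on the scaling while both members stayed lower.

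**Figure D3:**
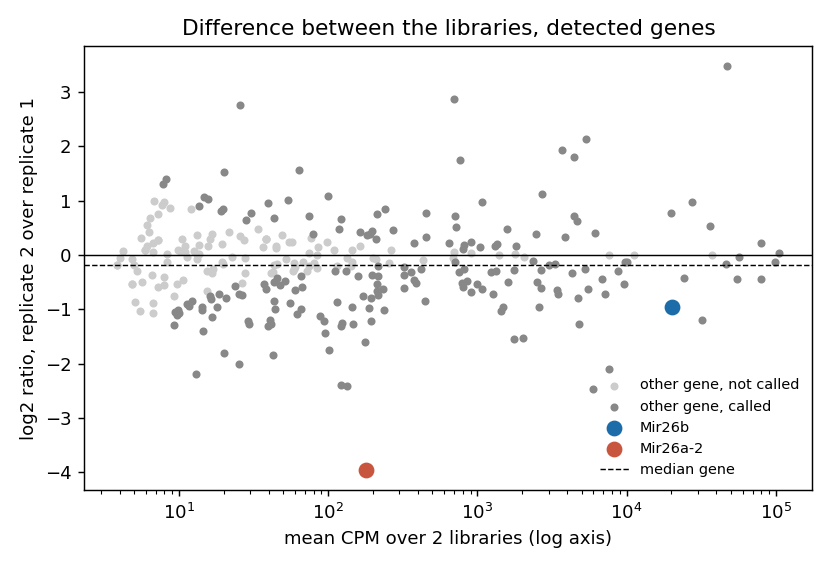
Log2 ratio of replicate 2 over replicate 1 against mean CPM (log axis) for the 306 detected genes, dark where the exact binomial test called the gene. Mir26a-2 lies at -3.96, below every other gene, and Mir26b at -0.95, within the range of genes of like abundance; the dashed line is the median gene at -0.19.

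Markers of other cell types also differed between the libraries. All 3 genes of the erythroid list (Mir451a, Mir144 and Mir486) were higher in replicate 2, and the list held 9.56% of counts there and 1.15% in replicate 1. With library totals taken without them, Mir26b stood at -0.82 and Mir26a-2 at -3.83, and the family at 1.53% of counts in replicate 2 and 2.74% in replicate 1. Of the 5 fibroblast genes (Mir21a, Mir214, Mir199b, Mir199a-1 and Mir199a-2) 3 were detected. Of these 2, Mir21a and Mir214, passed the binomial test as lower in replicate 2, as did 41.5% of all 306 detected genes. Together the 5 made up 0.252% of counts in replicate 2 and 1.12% in replicate 1, most of it Mir21a at 1810 CPM in replicate 2 and 10018 in replicate 1. The other 4 summed to 714 CPM in replicate 2 and 1137 in replicate 1. Mir199a-1 was at 0 in a library. In other lists, 3 of 4 leukocyte, 2 of 2 smooth muscle and 2 of 3 cardiac muscle genes passed as lower. The only liver gene and the only skeletal muscle gene did so too. All calls here use library totals, a scaling on which the balance of directions rests. Mir143 of the smooth muscle list, at a log2 ratio of -0.16, stood above the median detected gene at -0.19. In the cardiac muscle, endothelium and epithelium lists 1 gene each passed as higher, of 3, 1 and 4 detected genes. Over all 306 detected genes 19.6% passed as higher. The part of the fibroblast list in the miR-26 difference was not tested. In whole tissue, fewer cells of a type and less RNA per cell cannot be told apart.

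Several abundant genes had levels like those of Mir26b. The detected genes nearest to it in log2(CPM + 1) over the 2 libraries were Mir139, Mir22 and Mir149, at distances of 0.59, 0.87 and 1.22. Mir139 stood at 20818 CPM in replicate 2 and 27970 in replicate 1, and Mir22, which is known in cardiac hypertrophy, at 19238 and 44360 CPM. Mir149 ran the other way, at 25181 CPM in replicate 2 and 14684 in replicate 1. By mean level Mir26b came after Mir99a (27338 ± 12521 CPM) and Mir139 (24394 ± 5057) and before Mir149 (19932 ± 7422) and Mir191 (11162 ± 36.9). Its 2 values overlapped those of Mir99a, Mir139 and Mir149, so its place among these is not settled, whereas both lay above both values of Mir191.

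The detected genes nearest to Mir26a-2 were Mir223, a myeloid microRNA, at a distance of 1.09, Mir487b of the imprinted Dlk1-Dio3 cluster at 1.09 and Mir101a at 1.54. Mir223 stood at 39.0 CPM in replicate 2 and 205 in replicate 1, Mir487b at 41.9 and 224 CPM, and Mir101a at 46.9 and 157 CPM. All were lower in replicate 2, with log2 ratios of -2.39, -2.42 and -1.74. They were chosen by closeness to Mir26a-2 in these same values, so the shared direction follows from the choice. By mean level the neighbours of Mir26a-2 were Mir125b-1 (187 ± 86.5 CPM) and Mir350 (182 ± 32.4) above it, and Mir128-1 (176 ± 125) and Mir338 (170 ± 61.8) below. All 4 had values inside the range of Mir26a-2, so its rank is not settled by 2 libraries.

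Hairpins that share 22 bases with a hairpin elsewhere were detected in 55 of 1032 cases (5.33%), against 251 of 1170 without such a stretch (21.5%). The classes were not matched in other ways, and what lies behind this difference was not tested. Among detected genes Mir26a-2 shares a stretch with 1 other hairpin and Mir669o with 38. Mir26a-2 is among the 55, and Mir26a-1 among those not detected. Over the 55 the median log2 ratio was -0.23, close to -0.19 over the other 251. After Mir26a-2 the next lowest of the 55 were Mir128-2 at -1.80 and Mir128-1 at -1.59. The highest was Mir3074-1 at 2.75.

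Other small families with shared bases were set beside miR-26 to see whether their counts were as uneven. The share of the miR-26 family was 1.39% of counts in replicate 2 (1.37 to 1.40) and 2.71% in replicate 1 (2.69 to 2.73), with a mean of 2.05% ± 0.936 (SD, n = 2). For the 6 genes of miR-30 the share was 2.34% in replicate 2 and 2.71% in replicate 1. The miR-29 family of 4 genes, known to repress collagen genes, held 0.835% in replicate 2 and 0.865% in replicate 1. The family of miR-103 and miR-107, whose 3 genes lie in pantothenate kinase genes, held 0.0706% in replicate 2 and 0.0614% in replicate 1. The share of miR-26 thus differed 1.96-fold between the libraries, and those of the other 3 families by at most 1.16-fold. This describes 4 families without a test. Almost all of the miR-26 share is Mir26b, whose log2 ratio of -0.95 ranked 48 from the lowest of 306 detected genes. A difference of this size was thus not particular to miR-26.

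A leading gene also dominated the family of miR-103 and miR-107 and the miR-29 family. Mir107 held 98.9% of its family's counts in replicate 2 and 97.7% in replicate 1, and Mir29a held 91.0% and 87.8%. In miR-30 the leading gene, Mir30d, held 39.6% in replicate 2 and 37.3% in replicate 1. Mir103-1, at 3 and 6 counts in replicates 2 and 1, was as low as Mir26a-1, and its paralog Mir103-2 had 19 and 28 counts. Of the detected genes 2 of 2 in miR-26, 1 of 2 in miR-103 and miR-107, 3 of 4 in miR-29 and 6 of 6 in miR-30 passed the binomial test, set against 61.1% of all genes. Their median log2 ratios were -2.46, -0.27, -0.60 and -0.24. In miR-26 the median lies midway between Mir26b at -0.95 and Mir26a-2 at -3.96 and describes neither. In miR-103 and miR-107 it lies midway between Mir103-2 at -0.75 and Mir107 at 0.22. Mir29b-1 and Mir29b-2, a pair of genes with shared bases as in Mir26a, had log2 ratios of -0.73 and -0.71, and Mir30c-1 and Mir30c-2 had -0.31 and 0.18.

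**Figure D4:**
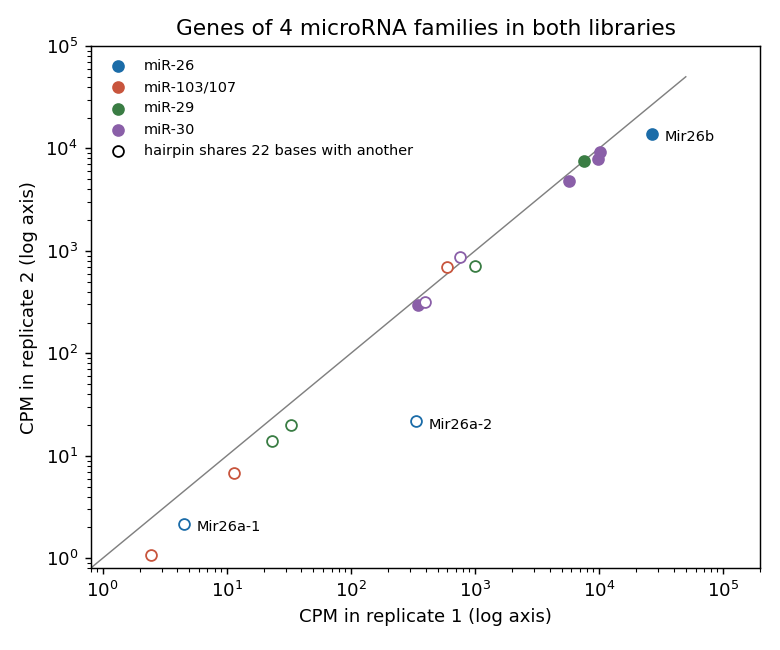
CPM in replicate 2 against CPM in replicate 1 (log axes) for the 16 genes of miR-26, miR-103 with miR-107, miR-29 and miR-30, open where the hairpin shares 22 bases with another. Mir26a-2 lies far below the line of equality, at 21.7 CPM in replicate 2 and 337 in replicate 1. The genes of miR-29 and miR-30 lie nearer to the line, at log2 ratios from -0.73 (Mir29b-1) to 0.18 (Mir30c-2), and Mir26b lies at -0.95.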

How the data were processed

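The submitters counted small RNA reads per GENCODE M21 microRNA gene on mm10, per the labels and the deposited text; the aligner and counter were not named in any source used. Values were deposited as raw counts in 3 columns, taken from their values as either strand, own strand and opposite strand. The first column held less than the second in replicate 2, 1963878 against 2770301 over all genes and 0 against 260986 for Mir378a. As an alternative it thus lacks reads of some abundant genes, though not of Mir26b or Mir26a-2. The first 4 lines name no gene; they held 65.3% of reads in replicate 2 and 70.0% in replicate 1 and were left out. The members and lists were chosen with earlier results of these data known.

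Own-strand counts were scaled to CPM per library. Genes with at least 10 counts in both libraries were tested with a two-sided exact binomial test, replicate 2 over replicate 1, with Benjamini-Hochberg adjustment at 0.05. The libraries were not copies of each other (chi-square per degree of freedom 510 over 682 genes). The text names all members, 3 fixed comparison families, marker lists, the 3 genes nearest each detected member in log2(CPM + 1) over the libraries, and the 2 ranked above and below it. Shared stretches were sought as exact matches on both strands among the annotated hairpins; the genome sequence was not used here. The test and the search were tested on simulated data. The simulated counts held counting error alone, so they do not show how the test behaves under the wider spread between these libraries. Alternatives were TMM and DESeq2 factors, the either-strand column, other filters and windows, edgeR's exact test, another denominator and each replicate alone. Python 3.11.15, scipy 1.17.1, Biopython 1.88, RNAfold 2.7.2, R 4.3.3, edgeR 4.0.16 and DESeq2 1.42.0 were used.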

Additional observations from a re-analysis of the deposited data

Results flagged for a closer look

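Reads outside the gene counts were far more than 3, the limit set for a count of 0. Reads mapped to several places numbered 3410568 in replicate 2 and 3992614 in replicate 1, and reads mapped once outside microRNA genes numbered 412466 and 302782. The tables do not assign them to genes, so their miR-26 content is not known.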

How the results depend on the processing

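Of 47 values under alternatives that kept both replicates, 41 kept their direction and side of the threshold or moved by less than the spread. None changed direction. This tally is a weak check. For levels the spread was the SD over the 2 libraries, which for Mir26a-2 was 223 CPM against a mean of 179 CPM. Count filters leave the log2 ratio of a gene as it was. Mir26b and Mir26a-2 had equal counts in the either-strand and own-strand columns, so their ratio could not move there. Adding the reads with several mapping places to the denominator, the family share was 0.822%. By edgeR's exact test with the common dispersion 2 genes were called in place of 187, and Mir26b, at a log2 ratio of -0.95, no longer passed (adjusted p = 1, the highest over its alternatives); for Mir26a-2 the adjusted p was 0.00426, the highest over its alternatives, against 8e-167 with TMM factors. Asking also for a 1.5-fold difference left 112 genes, both members included. With windows of 18 bases 8 start positions of Mir26a-2 and 8 of Mir26a-1 had a copy in another hairpin. Library totals without the erythroid list were chosen after seeing the data.

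With 1 replicate left out, the family share ran from 1.39% to 2.71%, Mir26b from 13830 to 26745 CPM, Mir26a-2 from 21.7 to 337 CPM, Mir26a-1 from 2.17 to 4.54 CPM and the ratio of Mir26b to Mir26a-2 from 79.4 to 639, the Mir26a-2 values resting on the library kept. Without a count filter Mir26a-1 did not pass the exact binomial test (adjusted p = 0.387 over 682 genes). No paired analysis was possible because the labels give 1 group. Depth limits Mir26a-1, whose counts of 6 and 11 in replicates 2 and 1 cannot show a difference of its size.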
